A study of Xenopus laevis with 6 samples.

Results

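Keratins are the intermediate filament proteins of epithelial cells. They were measured here as transcripts in Xenopus laevis animal caps, pieces of blastula ectoderm that turn into epidermis when they are grown without other tissue. The probe sets were chosen by name: each had exactly 1 gene symbol in the platform annotation, and that symbol began with krt and a digit. The rule gave 40 probe sets of 29 genes among the 32539 probe sets tested. Of those tested, 15495 carry exactly 1 symbol, with 11303 different symbols among them. Shares of all probe sets below count all 32539, with or without a symbol. The frog is allotetraploid, and its L and S subgenome copies counted as separate genes, with 22 probe sets for 17 L copies and 18 probe sets for 12 S copies. There were 3 injected groups, with 2 arrays each: ERK3 MO1/2, TFAP2A MO1/2 and Control MO.

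Each MO is an antisense morpholino oligonucleotide, which blocks translation or splicing of its target RNA. ERK3 MO1/2 was a pair of morpholinos against ERK3, an atypical mitogen-activated protein kinase, given at 40 ng each. TFAP2A MO1/2 was a pair against TFAP2A, transcription factor AP-2 alpha, which acts in early ectoderm, also at 40 ng each. Control MO was given at 80 ng. All embryos came from in vitro fertilisation and were injected on the animal side of every blastomere at the 4-cell stage, so all groups carried a morpholino and none was uninjected. Caps were cut at stage 9 and harvested at stage 15, and the arrays of a group are labelled as biological replicates. The series title names epithelial architecture as the context of both knockdowns.

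A keratin filament is built from pairs of 1 acidic type I and 1 basic type II keratin, and neither type forms filaments alone. In this set krt12, krt15, krt17, krt18 and krt19 are type I genes, and krt7, krt8 and krt78 are type II genes. In the frog embryo the epidermis makes its own embryonic type I keratins, among them the XK81 and XK70 families, and XK81A1 is a common marker of epidermal against neural fate. Filaments are tied to desmosomes and hemidesmosomes through linker proteins of the plakin family. AP-2 was described early as a factor that binds the promoter of the frog XK81A1 gene.

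All intensities below are the deposited probe set values on a linear scale, which have no unit. Apart from sums over a list, levels are compared between groups for 1 probe set at a time, since probes differ in brightness. Changes are log2 differences of group means ± the standard error (SE) of limma's moderated fit, with 2 arrays per group. Calls needed an adjusted p under 0.05 (Benjamini-Hochberg over all 32539 probe sets of a comparison). The p-values rest on how far arrays of the same group, labelled as biological replicates, lay apart. This spread was pooled over the 3 groups and moderated with a prior estimated from all probe sets. The median intensity of the 6 arrays lay between 23.2 and 24.6, and the lower quartile between 6.36 and 6.96. The 3′ gapdh control probe set read 42.1 and 84.2 on the ERK3 MO1/2 arrays, 180.5 and 242.5 on the TFAP2A MO1/2 arrays, and 296.2 and 335.4 on the Control MO arrays. Of the targeted genes, 0 probe sets carried the ERK3 symbol mapk6. The tfap2a.L intensity was 1495.2 and 1286.8 with TFAP2A MO1/2 and 1125.5 and 753.4 with Control MO, which does not check the knockdown, because a morpholino need not lower its target's RNA.

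In ERK3 MO1/2 caps 3 keratin probe sets of 3 genes fell, krt18.1.L, krt18.3.L and krt8.1.S, and 0 rose. In TFAP2A MO1/2 caps 5 keratin probe sets of 4 genes fell, krt12.5.S, krt12.4.L, krt19.L with both of its probe sets, and krt18.3.L, and again 0 rose. Between the knockdowns 1 probe set differed, krt12.5.S, which was higher in ERK3 MO1/2 caps. In all, 7 keratin probe sets of 6 genes were called in at least 1 comparison, and 33 in none.

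**Figure D1:**
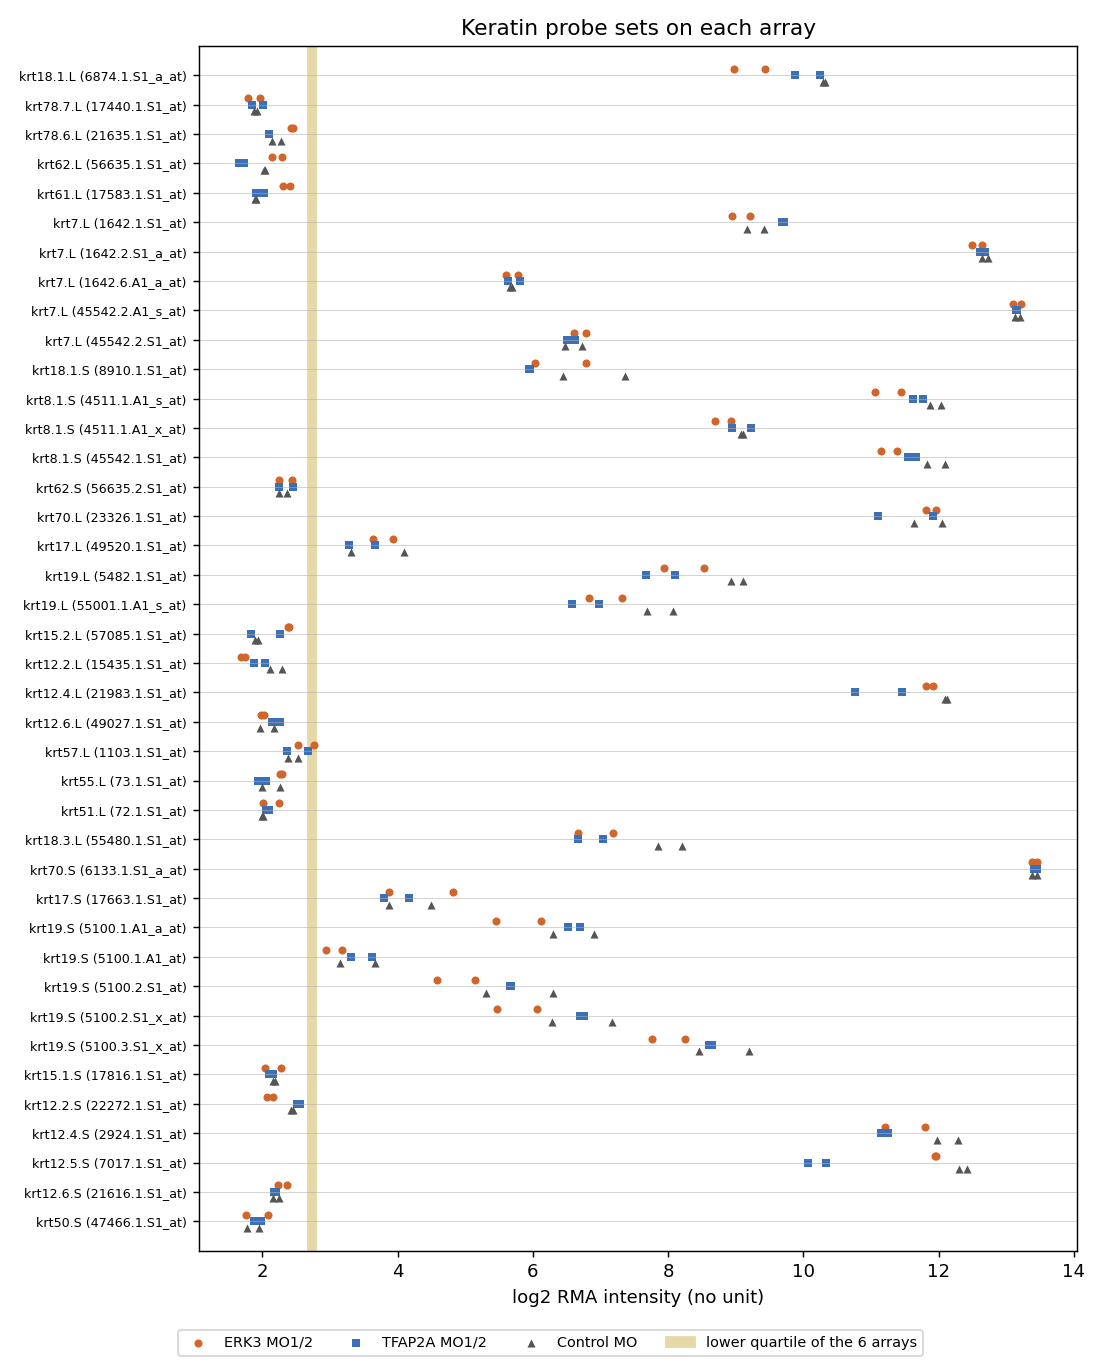
Log2 intensity (x axis, no unit) of each of the 40 keratin probe sets (y axis) on the 6 arrays, with circles for ERK3 MO1/2, squares for TFAP2A MO1/2 and triangles for Control MO; the shaded band spans the lower quartiles of the arrays. The 2 squares of krt12.5.S stand apart at the left of its circles and triangles, and 14 probe sets lie left of the band on all arrays.

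The share of keratin probe sets called was close to the share of all probe sets called. Against Control MO, ERK3 MO1/2 changed 7.50% of keratin probe sets and 10.6% of all probe sets. By direction, 0 of 40 keratin probe sets rose against 4.49% of all, and 3 of 40 fell against 6.09% of all. TFAP2A MO1/2 changed 12.5% of keratin probe sets and 11.3% of all, with 0 higher against 5.30% of all and 5 of 40 lower against 6.0% of all. Between ERK3 MO1/2 and TFAP2A MO1/2, 2.5% of keratin probe sets and 4.77% of all differed, with 1 of 40 higher against 2.28% of all and 0 lower against 2.49% of all. Without either Control MO array 0 of 32539 probe sets were called with ERK3 MO1/2, so each count of ERK3 MO1/2 calls given here, keratins and other lists alike, was then 0. The ERK3 MO1/2 calls over all probe sets numbered 3443, against 267 without ERK3 MO1/2 replicate 1. For TFAP2A MO1/2 they numbered 3677, against 658 without its replicate 1, 81 without its replicate 2, 697 without Control MO replicate 1, and 7, of which 0 were keratins, without Control MO replicate 2. The 1552 direct calls numbered 0 and 54 without ERK3 MO1/2 replicates 1 and 2, 1 without either TFAP2A MO1/2 array, and 295 without either Control MO array.

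The median keratin change was -0.09 with ERK3 MO1/2, against 0.04 over all probe sets, and -0.04 with TFAP2A MO1/2, against 0.02 over all. In the direct comparison it was 0.01 for keratins and 0.02 over all probe sets. Of the 40, 14 lay under the lower quartile of the arrays in all 3 groups, as did 19.6% of all probe sets. The other 26, of 15 genes, had medians of -0.38 with ERK3 MO1/2, -0.20 with TFAP2A MO1/2 and -0.006 between the knockdowns. Called or not, 19 of the 26 changed downward with ERK3 MO1/2 and 20 with TFAP2A MO1/2. Their called shares were 11.5% and 19.2%, all lower, beside 10.6% and 11.3% of all probe sets, dim ones included. At an unadjusted p under 0.05 the counts of the 40 keratin probe sets were 16 for ERK3 MO1/2, 9 for TFAP2A MO1/2 and 11 between the knockdowns. The same cut over all 32539 probe sets gave 9057, 8927 and 6727. Both ERK3 MO1/2 arrays lay above both Control MO arrays for 6 keratin probe sets and below them for 16, where all probe sets gave 31.1% above and 25.5% below. Both TFAP2A MO1/2 arrays lay above both Control MO arrays for 4 and below them for 13, where all probe sets gave 29.8% and 26.5%. Both ERK3 MO1/2 arrays lay above both TFAP2A MO1/2 arrays for 9 keratin probe sets and below them for 13, where all probe sets gave 25.9% and 23.6%.

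**Figure D2:**
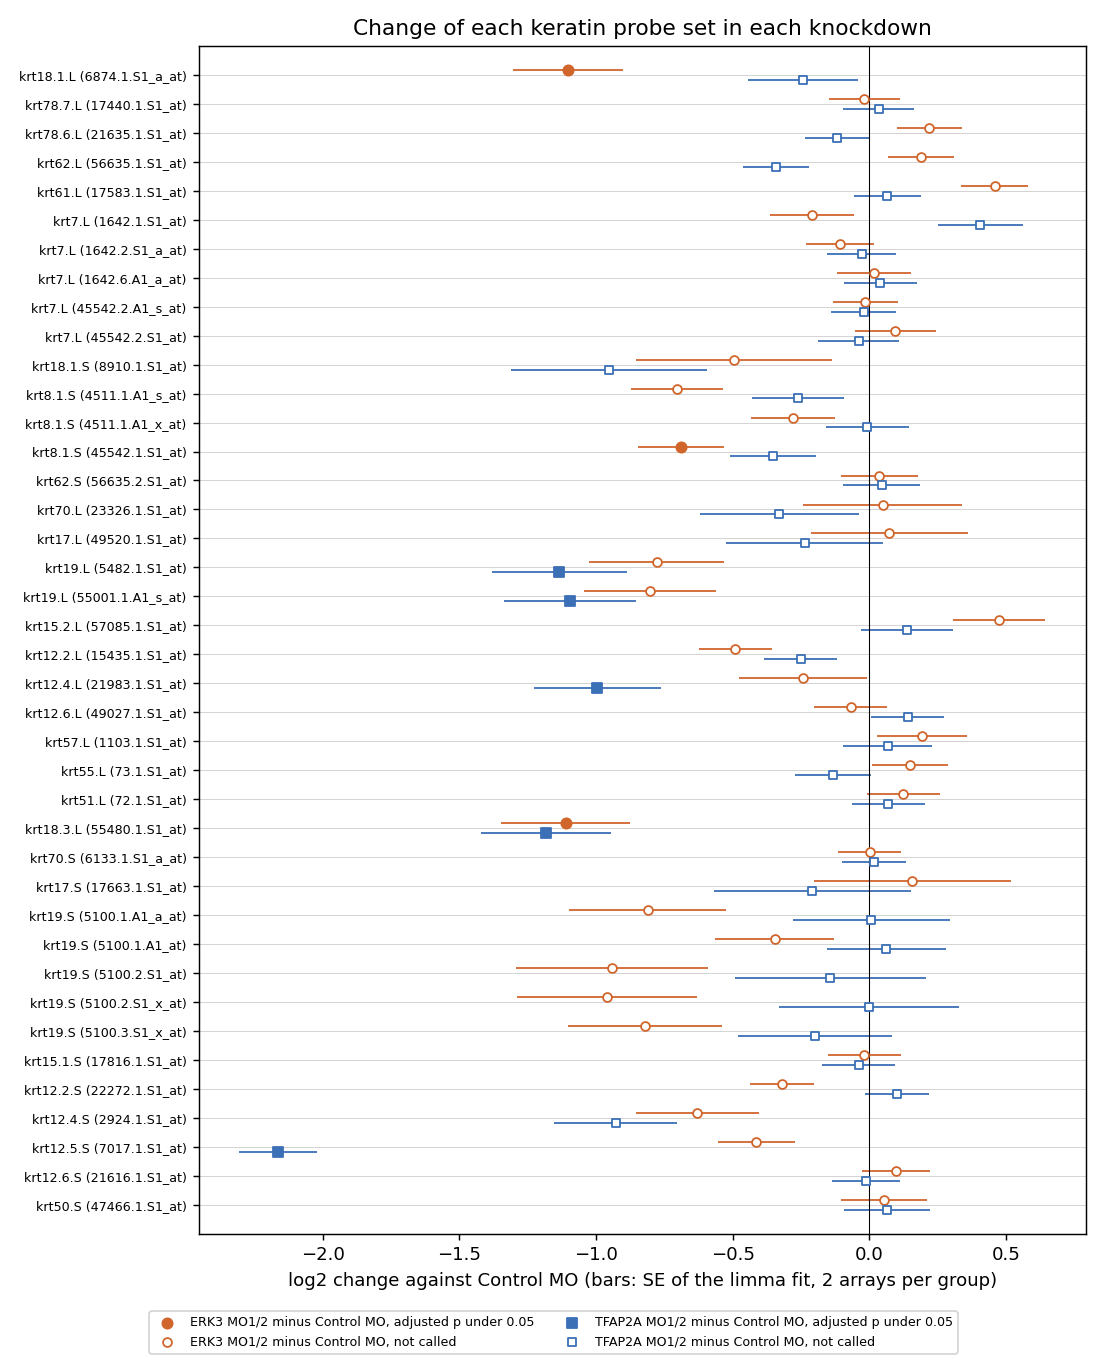
Log2 change against Control MO (x axis) of each of the 40 keratin probe sets (y axis) with ERK3 MO1/2 (circles) and TFAP2A MO1/2 (squares); bars are the SE of the limma fit with 2 arrays per group, and filled points have an adjusted p under 0.05. The filled points are 3 circles and 5 squares, all left of 0, with krt12.5.S under TFAP2A MO1/2 farthest left at -2.16.

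Among the embryonic epidermal keratins of type I, krt12.5.S and krt12.4.L fell in TFAP2A MO1/2 caps. The gene krt12.5.S, whose older symbol xk81b2 places it in the XK81 family, had intensities of 3934.5 and 3983.7 in ERK3 MO1/2 caps, 1072.1 and 1290.5 in TFAP2A MO1/2 caps, and 5065.2 and 5489.6 in Control MO caps (probe set Xl2.7017.1.S1_at). The groups did not overlap in any of the 3 comparisons, and the TFAP2A MO1/2 arrays stood far below the other 4. With TFAP2A MO1/2 it fell by 2.16 ± 0.14 on the log2 scale (adjusted p = 0.00594), to 0.223 times its Control MO level, with a 95% interval of the log2 change from -2.51 to -1.82. With ERK3 MO1/2 the change was -0.41 ± 0.14 and was not called (adjusted p = 0.122). The knockdowns themselves differed by 1.75 ± 0.14, higher in ERK3 MO1/2 caps (adjusted p = 0.012).

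The call of krt12.5.S in TFAP2A MO1/2 caps held in 5 of the 6 fits that left out 1 array, with changes of -2.30 to -2.03 over all 6. It was lost without Control MO replicate 2, where the change was -2.11 (adjusted p = 0.0555). The direct difference of krt12.5.S kept its call without either Control MO array and lost it without any of the other 4, with values of 1.62 to 1.88.

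The next gene, krt12.4, is the epidermal keratin XK81A1, measured for both copies. Its L copy had intensities of 3583.9 and 3883.2 in ERK3 MO1/2 caps, 2819.6 and 1739.5 in TFAP2A MO1/2 caps, and 4358.7 and 4467.6 in Control MO caps (Xl2.21983.1.S1_at). Both knockdowns lay below Control MO on both arrays, and the TFAP2A MO1/2 arrays differed from each other by 0.70 on the log2 scale. In TFAP2A MO1/2 caps krt12.4.L fell by 0.995 ± 0.233 (adjusted p = 0.0483), to 0.502 times the Control MO level. This call was lost in 5 of the 6 fits that left out 1 array and held without TFAP2A MO1/2 replicate 1 (-1.34). Without TFAP2A MO1/2 replicate 2 the change was -0.65. Its change with ERK3 MO1/2 was -0.24 ± 0.23 (adjusted p = 0.561), and the direct difference was 0.75 ± 0.23 (adjusted p = 0.138).

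The S copy, krt12.4.S, had intensities of 2369.3 and 3546.8 in ERK3 MO1/2 caps, 2434.8 and 2279.5 in TFAP2A MO1/2 caps, and 4008.8 and 5014.0 in Control MO caps (Xl2.2924.1.S1_at). All 4 knockdown arrays lay below both Control MO arrays. Its change with TFAP2A MO1/2 was -0.93 ± 0.23, near that of the L copy and just outside the threshold (adjusted p = 0.0523). It passed at the same change without either ERK3 MO1/2 array or with only the arrays compared (adjusted p = 0.0365), with an intensity trend in the prior variance (0.0272), and with a filter on dim probe sets (0.0486). With ERK3 MO1/2 it was -0.63 ± 0.23 (adjusted p = 0.136). The difference between the L and S copies was not tested. In the RefSeq gene table, krt12.4.S and krt12.5.S lie next to each other with 0 genes between them.

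The XK70 genes are type I keratins of the embryonic epidermis as well. The S copy krt70.S, read by Xl2.6133.1.S1_a_at, had 11249 and 10666 in ERK3 MO1/2 caps, 11268 and 10927 in TFAP2A MO1/2 caps, and 11236 and 10667 in Control MO caps. The 3 groups overlapped fully. The changes were 0.00 ± 0.12 with ERK3 MO1/2, with an interval of -0.29 to 0.29, and 0.02 ± 0.12 with TFAP2A MO1/2, with an interval of -0.27 to 0.31. The brightest probe set of each array read between 13042 and 14672, so krt70.S lay close to the top of the scale, where array signals can flatten; the part of this in the result was not tested.

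The L copy krt70.L had 3598.5 and 3987.2 in ERK3 MO1/2 caps, 2198.6 and 3866.2 in TFAP2A MO1/2 caps, and 3170.6 and 4230.4 in Control MO caps. The replicates of TFAP2A MO1/2 differed by 0.81 on the log2 scale, more than any difference between group means. Its changes, 0.05 ± 0.29 with ERK3 MO1/2 and -0.33 ± 0.29 with TFAP2A MO1/2, were not called.

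The gene krt19 is a type I keratin known from simple epithelia in mammals, and its L copy fell in TFAP2A MO1/2 caps. Copy krt19.L had 2 probe sets. The first, Xl2.5482.1.S1_at, gave 370.8 and 245.2 in ERK3 MO1/2 caps, 273.5 and 202.9 in TFAP2A MO1/2 caps, and 550.4 and 485.7 in Control MO caps. The second, Xl2.55001.1.A1_s_at, gave 159.7 and 113.5 in ERK3 MO1/2 caps, 126.3 and 95.7 in TFAP2A MO1/2 caps, and 268.5 and 205.5 in Control MO caps. On both probe sets the 4 knockdown arrays lay below the 2 Control MO arrays, and the knockdowns overlapped each other. In TFAP2A MO1/2 caps krt19.L fell by 1.13 ± 0.25 (adjusted p = 0.0395) and fell by 1.10 ± 0.24 (adjusted p = 0.0415), calls that were lost without either Control MO array or either TFAP2A MO1/2 array. Its changes with ERK3 MO1/2 were -0.78 ± 0.25 and -0.80 ± 0.24, and neither was called (adjusted p = 0.103 and 0.0928).

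Copy krt19.S had 5 probe sets, none of them called in any comparison. Its brightest, Xl2.5100.3.S1_x_at, gave 216.7 and 303.9 in ERK3 MO1/2 caps, 389.0 and 401.0 in TFAP2A MO1/2 caps, and 349.9 and 588.1 in Control MO caps. Another, Xl2.5100.2.S1_x_at, gave 44.5 and 67.1 in ERK3 MO1/2 caps, 108.4 and 104.0 in TFAP2A MO1/2 caps, and 78.1 and 144.4 in Control MO caps. On both the ERK3 MO1/2 arrays were the lowest, and the TFAP2A MO1/2 arrays lay inside the Control MO range. Xl2.5100.1.A1_a_at gave 44.0 and 69.8 in ERK3 MO1/2 caps, 92.0 and 103.9 in TFAP2A MO1/2 caps, and 78.8 and 120.0 in Control MO caps. Xl2.5100.2.S1_at gave 23.9 and 35.5 in ERK3 MO1/2 caps, 50.4 and 51.0 in TFAP2A MO1/2 caps, and 39.7 and 79.0 in Control MO caps. The dimmest, Xl2.5100.1.A1_at, gave 9.05 and 7.65 in ERK3 MO1/2 caps, 12.3 and 9.96 in TFAP2A MO1/2 caps, and 8.86 and 12.6 in Control MO caps. The order of the first pair recurred on these, except that ERK3 MO1/2 overlapped Control MO on the dimmest. The replicates of Control MO lay apart by up to 0.995 on the log2 scale over the 5 probe sets. The changes of krt19.S ran from -0.96 to -0.35 with ERK3 MO1/2 and from -0.20 to 0.06 with TFAP2A MO1/2. Set beside them, the L copy ran from -0.80 to -0.78 with ERK3 MO1/2 and from -1.13 to -1.10 with TFAP2A MO1/2. This difference between the copies was not tested, and the sources used here do not say whether each probe set reads 1 copy alone.

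The simple epithelial pair krt8 and krt18, the first keratins of the vertebrate embryo, fell in ERK3 MO1/2 caps for 1 copy each. The type I gene krt18.1.L had intensities of 504.2 and 687.8 in ERK3 MO1/2 caps, 944.2 and 1211.5 in TFAP2A MO1/2 caps, and 1257.6 and 1274.8 in Control MO caps (Xl2.6874.1.S1_a_at). The ERK3 MO1/2 arrays were the lowest and overlapped neither other group. In ERK3 MO1/2 caps krt18.1.L fell by 1.10 ± 0.20 (adjusted p = 0.0268), to 0.465 times the Control MO level. The call was lost without either Control MO array and without ERK3 MO1/2 replicate 1, with values of -1.33 to -0.88 over the 6 fits that left out 1 array. The change with TFAP2A MO1/2 was -0.24 ± 0.20 (adjusted p = 0.517). The direct difference of -0.86 ± 0.20, lower in ERK3 MO1/2 caps, was not called (adjusted p = 0.0721).

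Its S copy, krt18.1.S, had 65.6 and 110.1 in ERK3 MO1/2 caps, 61.6 and 62.1 in TFAP2A MO1/2 caps, and 87.4 and 164.1 in Control MO caps. ERK3 MO1/2 and Control MO overlapped, and the replicates of Control MO differed by 0.91 on the log2 scale. The changes were -0.50 ± 0.36 in ERK3 MO1/2 caps and -0.95 ± 0.36 in TFAP2A MO1/2 caps, and neither was called (adjusted p = 0.432 and 0.152).

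The type II partner krt8.1.S, older name XCK1, had 3 probe sets. Xl2.45542.1.S1_at gave 2265.4 and 2680.4 in ERK3 MO1/2 caps, 2990.1 and 3249.3 in TFAP2A MO1/2 caps, and 3625.0 and 4362.0 in Control MO caps. Xl2.4511.1.A1_s_at gave 2129.4 and 2772.1 in ERK3 MO1/2 caps, 3136.9 and 3478.0 in TFAP2A MO1/2 caps, and 3748.1 and 4180.1 in Control MO caps. On both probe sets the 3 groups were separate, with ERK3 MO1/2 lowest and Control MO highest. In ERK3 MO1/2 caps the first fell by 0.69 ± 0.16 (adjusted p = 0.0467), a call lost when any 1 array was left out, and the second had a change of -0.70 ± 0.17 that was not called (adjusted p = 0.0534). The third probe set of krt8.1.S, Xl2.4511.1.A1_x_at, gave 414.0 and 488.0 in ERK3 MO1/2 caps, 494.2 and 596.2 in TFAP2A MO1/2 caps, and 541.6 and 549.4 in Control MO caps, a change of -0.28 ± 0.15 with ERK3 MO1/2 that was not called. With TFAP2A MO1/2 the changes of the 3 probe sets ran from -0.35 to -0.01, none of them called. In the RefSeq gene table krt18.1 and krt8.1 are neighbours, and the L copy krt8.1.L was not analysed here.

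A second member of the krt18 family, krt18.3.L, was the 1 keratin probe set of 40 called in both knockdowns. It had 101.7 and 144.8 in ERK3 MO1/2 caps, 101.5 and 131.0 in TFAP2A MO1/2 caps, and 231.8 and 296.0 in Control MO caps (Xl2.55480.1.S1_at). The knockdowns overlapped each other, and both lay below Control MO. It fell by 1.11 ± 0.24 in ERK3 MO1/2 caps (adjusted p = 0.0395) and fell by 1.18 ± 0.24 in TFAP2A MO1/2 caps (adjusted p = 0.0322), and both comparisons share the Control MO arrays. The call with ERK3 MO1/2 was lost in 5 of the 6 fits that left out 1 array and held without ERK3 MO1/2 replicate 2 (-1.37). The call with TFAP2A MO1/2 was lost without either Control MO array or either TFAP2A MO1/2 array. Over all 32539 probe sets, 879 were called lower in both knockdowns and 675 higher in both.

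**Figure D3:**
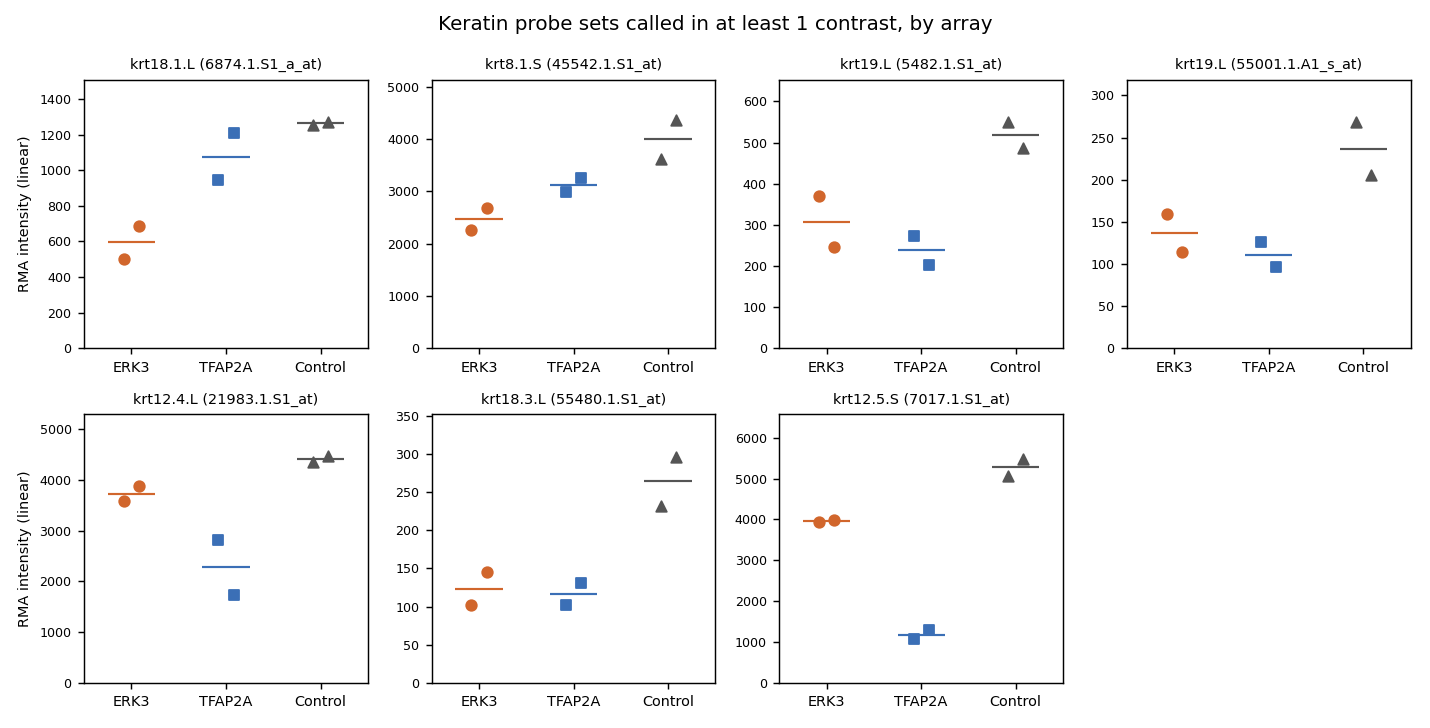
Intensity (y axis, linear, starting at 0, no unit) of the 7 keratin probe sets called in at least 1 comparison, 1 panel each, with a point for each array and a bar at the mean of the 2 arrays, in the order ERK3 MO1/2, TFAP2A MO1/2, Control MO. The TFAP2A MO1/2 points of krt12.5.S (1072.1 and 1290.5) and the ERK3 MO1/2 points of krt18.1.L (504.2 and 687.8) are the lowest of their panels, and both knockdowns lie below Control MO for krt18.3.L.

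The type II gene krt7.L, older name XCK55, showed no called change on any of its 5 probe sets. Its changes ran from -0.21 to 0.10 with ERK3 MO1/2 and from -0.04 to 0.41 with TFAP2A MO1/2. On the bright probe set Xl2.45542.2.A1_s_at the intensities were 9479.6 and 8766.3 in ERK3 MO1/2 caps, 9058.3 and 9100.6 in TFAP2A MO1/2 caps, and 9419.5 and 9004.8 in Control MO caps. The groups overlapped there, and the intervals of the change ran from -0.31 to 0.28 with ERK3 MO1/2 and from -0.31 to 0.27 with TFAP2A MO1/2. Like krt70.S, this probe set read high on the scale, where array signals can flatten, and the part of this was not tested. The probe set that departed from the others was Xl2.1642.1.S1_at, with 593.1 and 495.0 in ERK3 MO1/2 caps, 841.2 and 819.6 in TFAP2A MO1/2 caps, and 685.6 and 572.7 in Control MO caps. The TFAP2A MO1/2 arrays were highest on it. Its change of 0.41 ± 0.16 with TFAP2A MO1/2 and its direct difference of -0.62 ± 0.16 were not called (adjusted p = 0.158 and 0.0874).

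The remaining keratins were dim. The copies of krt17, in mammals a keratin of stressed and appendage epithelium, read between 9.68 and 17.1 for krt17.L and between 13.8 and 28.1 for krt17.S over the 6 arrays. Their groups overlapped, and their changes of 0.07 and 0.16 with ERK3 MO1/2 and -0.24 and -0.21 with TFAP2A MO1/2 were not called. The gene krt57.L read between 5.14 and 6.76, at the lower quartile of the arrays, and was not called either.

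Another 14 probe sets of 14 genes lay below the lower quartile of the arrays in all 3 groups, as did 19.6% of all probe sets. They were krt78.6.L, krt78.7.L, krt61.L, krt62.L, krt62.S, krt15.1.S, krt15.2.L, krt12.2.L, krt12.2.S, krt12.6.L, krt12.6.S, krt50.S, krt51.L and krt55.L. Among them are genes whose older symbols mark the larval keratins (xlk for krt62, xlk2 for krt15.2) and the adult keratins (xak-a for krt51, xak-b for krt55, xak-c for krt12.6), and the caps were harvested at stage 15, a neurula stage. None of the 14 was called. The 26 probe sets of 15 genes above the quartile in at least 1 group hold all 7 that were called.

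The probe set of this dim group with the smallest adjusted p was krt61.L with ERK3 MO1/2, named here after its values were seen. It read 5.33 and 4.93 in ERK3 MO1/2 caps, 4.07 and 3.74 in TFAP2A MO1/2 caps, and 3.72 and 3.74 in Control MO caps, and was not called with ERK3 MO1/2 (adjusted p = 0.0687). It passed with an intensity trend in the prior variance (adjusted p = 0.0307). When each array was centred on its own median, it passed as well (adjusted p = 0.0498), and the ERK3 MO1/2 split became 1 higher (krt61.L) and 1 lower (krt18.1.L), beside 0 higher and 3 lower as deposited. The medians that centring removed lay within 0.05 of 0 on the log2 scale.

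The RefSeq gene table places keratin genes in runs. It lists 71 keratin genes in 6 runs, of which 29 were measured. The runs that hold krt7, krt8.1, krt61, krt62 and krt78, with krt18.1 at their end, had 15 probe sets of 9 genes, with 2 lower in ERK3 MO1/2 caps and 0 called in TFAP2A MO1/2 caps. The runs that hold krt12, krt15, krt17, krt19, krt70 and the krt50 to krt57 genes had 24 probe sets of 19 genes, with 0 called in ERK3 MO1/2 caps and 4 lower in TFAP2A MO1/2 caps. The medians were -0.02 and -0.16 with ERK3 MO1/2 and -0.03 and -0.09 with TFAP2A MO1/2, the first of each pair for the run of krt7. Called shares with ERK3 MO1/2 were 13.3% for the runs of krt7 and 0% for the runs of krt12, beside 10.6% of all probe sets. With TFAP2A MO1/2 they were 0% and 16.7%, beside 11.3% of all. At an unadjusted p under 0.05 in the limma fit, the ERK3 MO1/2 counts had the other order. They were 4 of 15 for the runs of krt7 and 11 of 24 for the runs of krt12, beside 9057 of all 32539. With TFAP2A MO1/2 they were 3 of 15 and 5 of 24, beside 8927 of all. These counts take genes with several probe sets more than once. No difference between the runs was tested. The remaining probe set, krt18.3.L, belongs to a run of 2 genes with krt8.2.L.

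By copy, L probe sets had 2 lower in ERK3 MO1/2 caps and 4 lower in TFAP2A MO1/2 caps of 22 (9.09% and 18.2%). S probe sets had 1 and 1 of 18 (5.56% each), where 6.09% and 6.0% of all probe sets were lower. Of the 4 L probe sets lower in TFAP2A MO1/2 caps, 2 were of 1 gene, krt19.L. The median change with ERK3 MO1/2 was 0.00 for L and -0.38 for S probe sets, and with TFAP2A MO1/2 it was -0.08 and -0.03. These medians count genes with several probe sets more than once. Of the 18 S probe sets, 5 were of krt19.S and 3 of krt8.1.S. Their changes with ERK3 MO1/2 were -0.96 to -0.35 and -0.70 to -0.28. Of the 22 L probe sets, 5 were of krt7.L (-0.21 to 0.10). For 8 genes both copies were measured (krt12.2, krt12.4, krt12.6, krt17, krt18.1, krt19, krt62 and krt70). Among these, krt18.1 had changes with ERK3 MO1/2 of -1.10 on its L copy and -0.50 on its S copy, and with TFAP2A MO1/2 of -0.24 on its L copy and -0.95 on its S copy. None of the copy differences was tested.

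Genes that tie keratin filaments to junctions were read beside the keratins, with 22 probe sets of 16 genes. With ERK3 MO1/2 6 of them fell and 0 rose (27.3%, median change -0.35), and with TFAP2A MO1/2 6 fell and 0 rose (27.3%, median -0.34), where 10.6% and 11.3% of all probe sets were called (6.09% and 6.0% lower) and the medians were 0.04 and 0.02. Of the 6 ERK3 MO1/2 calls, 4 were probe sets of 1 gene, ppl.L. The plakin ppl.L, periplakin, which binds keratin filaments, fell on all 4 of its probe sets with ERK3 MO1/2, with changes of -1.62 to -1.21 (adjusted p from 0.00963 to 0.0151). One of them, Xl2.15894.1.S1_at, was also called with TFAP2A MO1/2 (-1.05 ± 0.23, adjusted p = 0.0398). Its probe set Xl2.15894.2.S1_a_at read 112.6 and 131.1 in ERK3 MO1/2 caps, 256.9 and 229.1 in TFAP2A MO1/2 caps, and 301.3 and 340.5 in Control MO caps. There the knockdowns differed by -0.998 ± 0.147 (adjusted p = 0.0258), and on Xl2.49560.1.S1_at by -1.03 (adjusted p = 0.0251). The direct differences on Xl2.15894.1.S1_a_at (-0.70) and Xl2.15894.1.S1_at (-0.57) were not called (adjusted p = 0.0829 and 0.235).

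Another plakin of the list was envoplakin (evpl.L). It read 585.0 and 638.4 in ERK3 MO1/2 caps, 342.7 and 363.3 in TFAP2A MO1/2 caps, and 887.9 and 852.5 in Control MO caps. The 3 groups were separate, with TFAP2A MO1/2 lowest, as for krt12.5.S. It fell by 1.30 ± 0.12 with TFAP2A MO1/2 (adjusted p = 0.00792), the direct difference was 0.79 ± 0.12 (adjusted p = 0.0281), and the change of -0.51 ± 0.12 with ERK3 MO1/2 was not called (adjusted p = 0.0526). Plakoglobin (jup.S) fell by 0.54 ± 0.12 with ERK3 MO1/2 and fell by 0.55 ± 0.12 with TFAP2A MO1/2 (adjusted p = 0.045 and 0.0412), while jup.L had changes of 0.05 and -0.03 and was not called. The desmosomal plakophilin pkp3.S fell on both of its probe sets with TFAP2A MO1/2, with changes of -0.78 and -0.89 (adjusted p = 0.0256 and 0.0147). The hemidesmosome integrin itga6.L fell with both knockdowns on Xl2.21436.1.S1_at, which read 8.35 and 11.5 in ERK3 MO1/2 caps, 10.9 and 8.71 in TFAP2A MO1/2 caps, and 21.2 and 17.6 in Control MO caps. Its changes there were -0.98 ± 0.21 with ERK3 MO1/2 and -0.99 ± 0.21 with TFAP2A MO1/2 (adjusted p = 0.0406 and 0.0379), and its other probe set was not called. Desmoplakin, the plakin that links desmosome and keratin filament, was not called for either copy. Its changes were -0.11 for dsp.L and 0.14 for dsp.S in ERK3 MO1/2 caps and -0.21 and 0.22 in TFAP2A MO1/2 caps. The plakin dystonin (dst.L), near the lower quartile of the arrays, was not called either, with changes of 0.02 and 0.11.

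The partner counts fell to 0 with ERK3 MO1/2 without either Control MO array or ERK3 MO1/2 replicate 1, and to 4 without any of the other 3. With TFAP2A MO1/2 they were 1 without Control MO replicate 1, 0 without replicate 2 of Control MO or of TFAP2A MO1/2, 2 without TFAP2A MO1/2 replicate 1, and 4 without either ERK3 MO1/2 array.

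**Figure D4:**
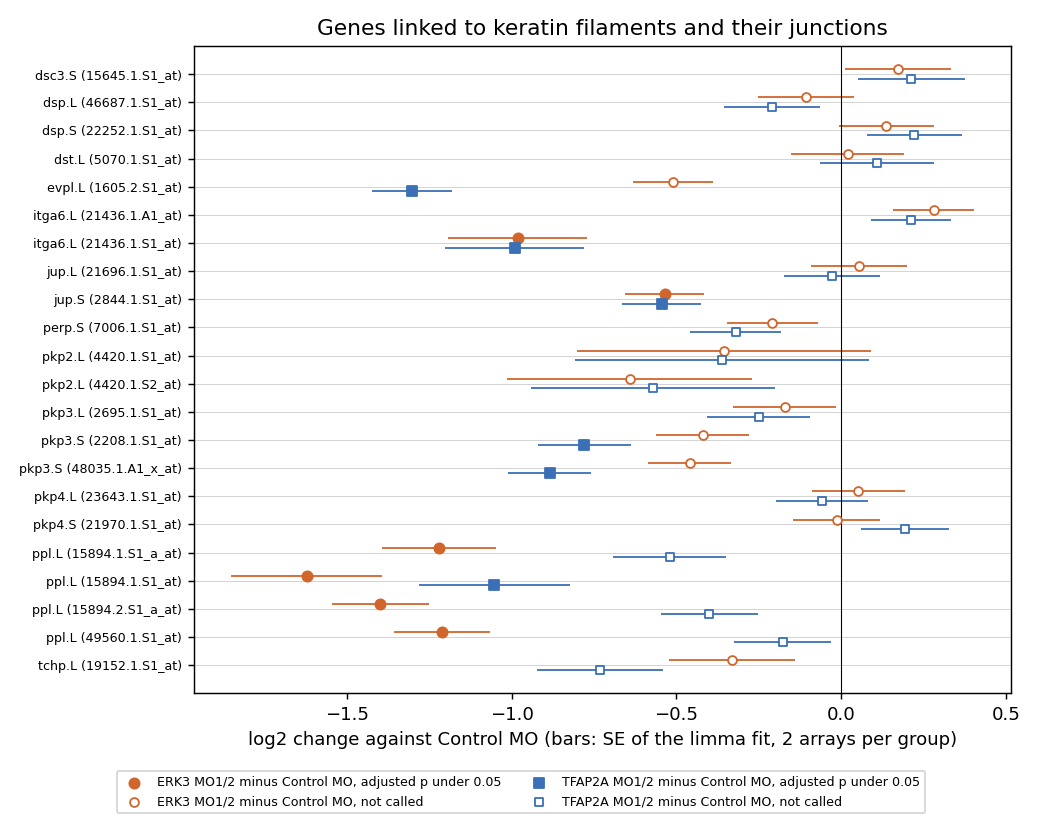
Log2 change against Control MO (x axis) of the 22 probe sets of genes linked to keratin filaments and their junctions (y axis), with circles for ERK3 MO1/2 and squares for TFAP2A MO1/2; bars are the SE of the limma fit with 2 arrays per group, and filled points have an adjusted p under 0.05. All 4 circles of ppl.L are filled and lie between -1.62 and -1.21, and the filled square of evpl.L lies at -1.30.

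Intermediate filament genes other than keratins had 27 probe sets of 21 genes. In ERK3 MO1/2 caps 5 fell and 0 rose, with a median change of -0.13, and in TFAP2A MO1/2 caps 2 fell and 0 rose, with a median of -0.002. These were 18.5% and 7.41% of the list, beside 10.6% and 11.3% of all probe sets. The neurofilament gene nefl.L fell in both, with changes of -1.08 ± 0.15 in ERK3 MO1/2 caps (adjusted p = 0.014) and -1.27 ± 0.15 in TFAP2A MO1/2 caps (adjusted p = 0.0102). The nuclear lamin gene lmnb1.L fell with TFAP2A MO1/2 (-0.77, adjusted p = 0.0163). Its relative lmnb2.S fell on both probe sets with ERK3 MO1/2 (-1.04 and -1.98, adjusted p = 0.029 and 0.0359). The neurofilament gene nefm.L fell there too (-1.12 ± 0.25, adjusted p = 0.0425), but read 6.75 and 6.45, under the lower quartile of those arrays. With ERK3 MO1/2 the other copies nefm.S (0.02) and lmnb2.L (-0.37 and -0.15) were not called. With TFAP2A MO1/2 lmnb1.S was not called (-0.075 and -0.084).

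In whole caps, fewer cells of a type and less keratin RNA per cell cannot be told apart. Summed over the 40 keratin probe sets, a sum set mostly by the brightest, intensity was 47833 and 49093 in ERK3 MO1/2 caps, 45291 and 46256 in TFAP2A MO1/2 caps, and 55816 and 58523 in Control MO caps. Both knockdowns lay below Control MO in this sum, for which no test was run. Transcription regulators of the epidermis had 51 probe sets, of which 3 rose and 5 fell with ERK3 MO1/2 and 3 rose and 7 fell with TFAP2A MO1/2, with median changes of 0.015 and 0.004. The basal keratinocyte factor tp63.L fell in both, with changes of -1.16 in ERK3 MO1/2 caps and -1.37 in TFAP2A MO1/2 caps (adjusted p = 0.0142 and 0.0102). It read 7.12 and 7.94 in ERK3 MO1/2 caps and 5.96 and 7.12 in TFAP2A MO1/2 caps, near the lower quartile. The brighter tp63.S probe sets were not called with ERK3 MO1/2 (-0.92 and -0.80, adjusted p = 0.0761 and 0.0925). With TFAP2A MO1/2 both tp63.S probe sets fell (-1.34 and -1.33, adjusted p = 0.0291 and 0.0252). The Krüppel-like factors klf17.1.S and klf17.L fell in ERK3 MO1/2 caps (-1.85 and -1.29, adjusted p = 0.00725 and 0.0103). Both were also called lower with TFAP2A MO1/2 (-0.68 and -0.82, adjusted p = 0.0326 and 0.0254). The CCAAT-binding factor cebpa.L fell in ERK3 MO1/2 caps (-1.68, adjusted p = 0.0268). The probe sets that rose there, named after their values were seen, were prdm1.S, tfap2a.S and gata2.L (1.25, 0.89 and 0.83), with 1 probe set each. Other probe sets of prdm1.S (0.59 and 0.78) and gata2.L (0.69) were not called with ERK3 MO1/2 (adjusted p = 0.176, 0.311 and 0.112). The copy tfap2a.L was not called either (0.805, adjusted p = 0.0847). In TFAP2A MO1/2 caps the 3 that rose were of the ETS factor ets2.S (1.71, 1.52 and 1.48, adjusted p = 0.00792, 0.014 and 0.0265). Its L copy, ets2.L, was not called there (0.19, adjusted p = 0.653). In the same caps klf5.S fell on 1 of its 3 probe sets (-1.38, adjusted p = 0.0138). The regulator calls made up 15.7% and 19.6% of the list, beside 10.6% and 11.3% of all probe sets. The regulator list summed to 22977 and 20774 in ERK3 MO1/2 caps, 21312 and 19636 in TFAP2A MO1/2 caps, and 21450 and 18730 in Control MO caps. In this sum, unlike that of the keratins, both knockdowns overlapped Control MO.

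Markers of other cell types were read in the same fit. Cement and hatching gland genes fell for 4 of 13 probe sets with ERK3 MO1/2 and for 7 of 13 with TFAP2A MO1/2 (30.8% and 53.8%, median changes -0.93 and -1.27), and their summed intensity was 563.4 and 1169.1 in ERK3 MO1/2 caps, 700.1 and 859.5 in TFAP2A MO1/2 caps, and 2148.2 and 2737.6 in Control MO caps. Mesoderm and notochord genes fell for 9 of 43 with ERK3 MO1/2 and 2 of 43 with TFAP2A MO1/2 (medians -0.34 and -0.16), which is 20.9% and 4.65%, beside 6.09% and 6.0% of all probe sets lower. Their sums were 505.6 and 664.4 in ERK3 MO1/2 caps, 947.5 and 947.6 in TFAP2A MO1/2 caps, and 1151.7 and 1177.0 in Control MO caps, and 13 of the 43 lay under the lower quartile on all arrays. Krt8 and krt18 genes are also made in notochord, which this list reads together with other mesoderm. The part of these markers in the keratin results was not tested.

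Surface cell types of the epidermis were read by 30 probe sets of multiciliated cells, 20 of ionocytes and 11 of goblet and small secretory cells. With ERK3 MO1/2 3 of each list fell and 0 rose. With TFAP2A MO1/2 4 multiciliated probe sets fell and 1 rose, 5 ionocyte probe sets fell, and 2 of the secretory list fell. In shares called, the lists had 10.0%, 15.0% and 27.3% with ERK3 MO1/2 and 16.7%, 25% and 18.2% with TFAP2A MO1/2, beside 10.6% and 11.3% of all probe sets. Both secretory calls with TFAP2A MO1/2, and 2 of the 3 with ERK3 MO1/2, were agr2.S and agr2.L, which the cement gland list counts too. The third with ERK3 MO1/2 was wfdc2.L (-4.56 ± 0.47, adjusted p = 0.00919), the largest fall over all probe sets. It read 61.0 and 167.8 in ERK3 MO1/2 caps, 1472.2 and 1717.1 in TFAP2A MO1/2 caps, and 2002.2 and 2856.0 in Control MO caps, a large part of the secretory sum. The medians were -0.004, -0.34 and -0.54 in ERK3 MO1/2 caps and -0.53, -0.27 and -0.48 in TFAP2A MO1/2 caps, in the order of the lists. Summed intensity of the secretory list was 6025.7 and 6723.8 in ERK3 MO1/2 caps, 7837.6 and 6482.3 in TFAP2A MO1/2 caps, and 11224 and 11953 in Control MO caps. For ionocytes it was 4514.1 and 3555.9 in ERK3 MO1/2 caps, 4571.7 and 3404.6 in TFAP2A MO1/2 caps, and 5365.9 and 5104.1 in Control MO caps. Multiciliated markers summed to 15226 and 13242 in ERK3 MO1/2 caps, 13460 and 11858 in TFAP2A MO1/2 caps, and 15498 and 15727 in Control MO caps. Control MO was highest in these 3 sums, which weigh bright probe sets most. The brightest multiciliated probe set was tubb4b.L. It read 4714.2 and 4767.4 in ERK3 MO1/2 caps, 5109.2 and 4887.2 in TFAP2A MO1/2 caps, and 6066.5 and 5984.9 in Control MO caps. The order of the multiciliated sum depended on it: without tubb4b.L, ERK3 MO1/2 replicate 1 would have the highest sum. Of the 30 multiciliated probe sets, 14 changed upward and 16 downward with ERK3 MO1/2, called or not. With TFAP2A MO1/2 6 changed upward and 24 downward. Of 47 neural probe sets 1 fell with ERK3 MO1/2 and 2 with TFAP2A MO1/2, 0 rose, and 15 lay under the lower quartile on all arrays (medians -0.02 and -0.11). The neural share called was 2.13% for the ERK3 knockdown, where 6.09% of all probe sets were lower. For the TFAP2A knockdown it was 4.26%, where 6.0% of all were lower. Its 2 neural calls were gmnn.L (-1.37, adjusted p = 0.00846) and otx2.S (-1.03, adjusted p = 0.0206). The cement and hatching gland list counts otx2.S too. The neural probe sets summed to 1942.0 and 2250.4 in ERK3 MO1/2 caps, 1900.3 and 1954.4 in TFAP2A MO1/2 caps, and 2487.5 and 2800.7 in Control MO caps. Their part in the keratin results was not tested.

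The counts of these lists rested on single arrays as well. Without ERK3 MO1/2 replicate 1, the ERK3 MO1/2 counts of the multiciliated, ionocyte, mesoderm, neural and other intermediate filament lists were 0, with 1 left of 8 for the regulators, 2 of 3 for the secretory list and 3 of 4 for cement and hatching glands. Without replicate 2 of TFAP2A MO1/2, or of Control MO, each of the lists had 0 calls with TFAP2A MO1/2. Without TFAP2A MO1/2 replicate 1 the cement and hatching gland count was 0, beside 7, and the mesoderm count was also 0, with 4 left for multiciliated cells, 3 for ionocytes and 1 each for the secretory, neural, regulator and other intermediate filament lists. Without Control MO replicate 1 these TFAP2A MO1/2 counts were 1 for glands, 1 for mesoderm, 2 for multiciliated cells, 2 for ionocytes, 0 for the secretory list, 2 for neural genes, 4 for regulators and 1 for other intermediate filament genes.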

How the data were processed

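RNA from cultured animal caps was hybridised to GeneChip Xenopus laevis Genome 2.0 arrays, 2 per group. The deposited values are linear probe set intensities. By the series' design text, the authors obtained them with RMA (robust multiarray average) in Expression Console, whose version the sources used here do not give. Per the submitters' processing notes, GCOS 1.4 was also used. RMA aligns the arrays by quantiles, which can hide a change shared by most transcripts. Arrays have no read depth, so their number limits the precision.

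Here the log2 of each deposited intensity was taken with no added constant. Leaving out 96 control probe sets of the manufacturer, limma 3.58.1 in R 4.3.3 fitted 1 mean per group over all 6 arrays to 32539 probe sets (3 residual and 2.99 prior degrees of freedom). Tests were two-sided, with Benjamini-Hochberg adjustment within each comparison, and the pipeline was tested on simulated data. With 2 arrays against 2, an exact permutation test cannot go below p = 0.333.

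Keratins were named from the platform annotation. All 29 symbols matched the RefSeq gene table (assembly Xenopus_laevis_v10.1) by identifier, with 0 updates; the table served for names and gene order only. Another 2 keratin probe sets carry several symbols and were left out. Values per array are given for each keratin probe set called in any comparison and for the other probe sets and copies of those genes; other keratins were chosen as examples, and for the partner, other intermediate filament and regulator lists at most 4 called members with the smallest adjusted p against Control MO are named. Marker lists are given by counts. Desmoplakin, jup.S, jup.L, the ppl.L call with TFAP2A MO1/2, itga6.L with ERK3 MO1/2, the rising regulators outside those 4, and agr2 were named after their values were seen. So were the klf17 calls with TFAP2A MO1/2, tp63.S, ets2.L, lmnb1.S, lmnb2.L, nefm.S, gmnn.L and otx2.S. The same holds for dst.L, tubb4b.L, wfdc2.L, tfap2a.L beside the regulators, and the other probe sets of prdm1.S and gata2.L. The keratins and gene lists were chosen with earlier results of these data known. Alternatives were fits with the replicate number as a block, with the arrays compared alone, with an intensity trend, with centred arrays, with 16 added before log2, with a filter on dim probe sets, with stricter thresholds and without each array. Promoter and protein sequences were not analysed here.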

Additional observations from a re-analysis of the deposited data

How the results depend on the processing

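With 3, 5 and 1 keratin probe sets called with ERK3 MO1/2 against Control MO, TFAP2A MO1/2 against Control MO and ERK3 MO1/2 against TFAP2A MO1/2, leaving out 1 array at a time gave 0 to 2, 0 to 5 and 0 to 1. An adjusted p under 0.01 left 0, 1 (krt12.5.S) and 0. Adding 16 to each intensity left 1 with TFAP2A MO1/2, also krt12.5.S, and fitting only the arrays compared left 1 with ERK3 MO1/2, krt18.1.L. An intensity trend in the prior variance gave 7 with ERK3 MO1/2 and 3 in the direct comparison. The cause of these moves was not tested, apart from the stricter threshold. The counts under the other settings, apart from the replicate block, lay within 1.5 times. Over all probe sets, leaving out either Control MO array took the ERK3 MO1/2 calls to 0 of 3443. The direct change of krt18.3.L, 0.07 and not called, turned to -0.18 without ERK3 MO1/2 replicate 2 and to -0.11 without TFAP2A MO1/2 replicate 1, each a fit with fewer samples, and reached 0.33 without ERK3 MO1/2 replicate 1.

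The groups share replicate numbers 1 and 2, but the labels do not say whether a number marks a shared batch. The samples were therefore treated as not paired. Deviations of same-numbered arrays from their group means correlated at 0.595, 0.535 and 0.545 over probe sets. With the replicate number as a block, the keratin counts were 13 with ERK3 MO1/2, 7 with TFAP2A MO1/2 and 6 in the direct comparison. Over all probe sets the block gave 7945, 7934 and 4831 calls, beside 3443, 3677 and 1552 without it. Newly called with the block in ERK3 MO1/2 caps were both krt19.L probe sets (adjusted p = 0.00977 and 0.00476), 4 of the 5 of krt19.S (0.0116 to 0.0238), the second of krt8.1.S (0.00949), krt12.4.S (0.0415), krt12.2.L (0.0392) and krt61.L (0.0335). In TFAP2A MO1/2 caps they were krt12.4.S (0.011) and krt18.1.S (0.021). In the direct comparison they were krt18.1.L (0.0117), krt7.L on Xl2.1642.1.S1_at (0.0221), krt62.L (0.0305) and 2 of krt19.S (0.017 and 0.0314).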

Other observations

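One keratin probe set, Xl2.5100.3.S1_s_at, is annotated to both krt19.L and krt19.S and so stood outside the 40. It read 399.1 and 338.4 in ERK3 MO1/2 caps, 388.4 and 332.9 in TFAP2A MO1/2 caps, and 663.9 and 617.7 in Control MO caps. All 4 knockdown arrays lay below both Control MO arrays, and the knockdowns overlapped. It fell by 0.80 ± 0.15 in ERK3 MO1/2 caps (limma adjusted p = 0.0286) and by 0.83 ± 0.15 in TFAP2A MO1/2 caps (limma adjusted p = 0.0249). No probe set of krt19.L alone or krt19.S alone was called with ERK3 MO1/2. The other such probe set, of krt62.L and krt62.S, read between 4.96 and 6.02 on the 6 arrays and was not called.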
